A study of Mus musculus with 12 samples.

Results

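Some of the interactions in a Hi-C or HiChIP table join an anchor to itself. Both ends of such a read pair fall in the same interval, so the pair reports a contact no longer than the anchor, whose median length was 2216 to 2923 bp by table and whose longest was 49664 bp. They were chosen as all interactions on chromosomes 1 to 19 whose anchor columns give, for both ends, an identical chromosome, start and end, and there were 977566 of them among 26824799 autosomal interactions in 6 tables. An anchor can have at most 1 such interaction in a table, whose score is the number of read pairs inside it. By table they numbered 231286 of 10179499 interactions in ESC Hi-C, 230417 of 10656802 in NCC Hi-C, 147403 of 1908347 in ESC FGFR1 HiChIP, 159627 of 2367305 in NCC FGFR1 HiChIP, 115470 of 876738 in ESC CTCF HiChIP and 93363 of 836108 in NCC CTCF HiChIP.

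The study compared chromatin contacts before and after neuronal commitment. The ESC were E14Tg2A mouse embryonic stem cells kept with Leukemia Inhibitory Factor (LIF). The NCC were the same line after 48 hours in LIF-free medium with 1 μM retinoic acid, a treatment that starts neural differentiation. Each combination of cell type and assay (Hi-C, HiChIP with an antibody to FGFR1, HiChIP with an antibody to CTCF) had 2 biological replicates, which the deposited tables hold merged, so that every value below comes from 1 pooled library and has no error between replicates. No test between the cell types was possible and no p-value is given. Intervals are 95% and cover counting error only, and read pairs carried no molecular identifiers. The tables list read pairs between called anchors, not all valid pairs of a library, whose number was not used here. On the autosomes they held 20643821 (ESC) and 21142644 (NCC) read pairs in Hi-C, 2645713 and 3177422 in FGFR1 HiChIP, and 1210721 and 1049415 in CTCF HiChIP. ESC and NCC stand for a single cell line and a single duration of treatment, and contact tables hold no RNA with which the cell labels could be checked.

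In these assays, cross-linked chromatin is cut with an enzyme that recognizes GATC, and fragments that lie close together are ligated. HiChIP then enriches ligation products bound by a chosen protein. CTCF binds a long asymmetric consensus sequence and, with cohesin, holds the bases of chromatin loops. FGFR1 is a receptor of fibroblast growth factors that also enters the nucleus. A read pair inside an anchor joins different restriction fragments of the same short interval, either neighbours or fragments a few positions apart, and such short contacts are normally set aside when loops are called.

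The CTCF HiChIP anchors that lost these pairs included anchors over a CTCF consensus site. Some of those sites are shown so that the sequences behind the comparison can be seen. The genome of build GRCm38 (mm10) had 12245 matches to the consensus on the autosomes, on both strands, and 4555 of them lay in an ESC and 4722 in an NCC CTCF HiChIP anchor. Capitals mark the 12 bases of the match, the lower case letters are the 9 bases on each side, and each is written 5′ to 3′ on the strand of the match. The first 4 lie in the regions with a consensus match that lost most read pairs inside. The other 4 were chosen after their values were seen. They lie in the anchors with the same borders in ESC and NCC, and a consensus match, that held most read pairs inside.
Psmd12 region, chr11:107512124-107512153, plus strand: acctgtgcaCCAGCAGAGGGCaccagatcc
Homer3 region, chr8:70282954-70282983, plus strand: cgtagctggCCAGCAGGGGGCgctgggcag
G3bp1 and Glra1 region, chr11:55511524-55511553, plus strand: taggaaattCCAGCAGAGGGCagaatggag
Dnajc5 region, chr2:181522975-181523004, minus strand: tcccggcaaCCACCAGGTGGCtcacagtca
Bbx anchor, chr16:50201715-50201744, plus strand: atgctacccCCACCAGGGGGCgacagcaca
Intergenic anchor of chromosome 11, chr11:53737296-53737325, minus strand: acatatcagCCACCAGGGGGCggtgttgga
Tnnt2 anchor, chr1:135847259-135847288, plus strand: tttatcctgCCAGCAGATGGCgctttagta
Intergenic anchor of chromosome 2, chr2:32854389-32854418, minus strand: aagctgtgcCCACCAGGGGGCgcgatgcga
The Homer3 site is exonic, the Dnajc5, Bbx and Tnnt2 sites are intronic, and the Psmd12 region's site is in an intron of the non-coding gene C330019F10Rik. The site between G3bp1 and Glra1 and the last intergenic pair lie outside annotated genes. Of the 4 lost regions, the G3bp1 and Glra1 site lay in an ESC but in no NCC anchor, whereas the other 3 sites lay in anchors of both cell types. The share of regions that hold a match was 2.42% of all merged ESC and NCC CTCF HiChIP regions.

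To see how much of each table stayed within single anchors, their read pairs were set against all autosomal read pairs listed between anchors. The shares are therefore shares of the anchored read pairs, not of the library. In Hi-C the share was 20.8% in ESC (4303522 read pairs, interval 20.83–20.86%) and 19.8% in NCC (4184380, 19.77–19.81%). For FGFR1 HiChIP the ESC table gave 20.02% (529709 read pairs, 19.97–20.07%) and that of NCC gave 17.4% (552531, 17.35–17.43%). The CTCF HiChIP share went from 28.3% (342819 read pairs, 28.24–28.40%) to 20.4% (213695, 20.29–20.44%). ESC CTCF HiChIP therefore stood above the other 5 tables, and NCC CTCF HiChIP lay at the level of Hi-C. That level depended on the anchors and scores used. Among anchors of 2 to 4 kb, NCC CTCF HiChIP had 33.2% against 36.8% in NCC Hi-C. At scores of at least 2 it had 52.0% against 33.2%.

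**Figure D1:**
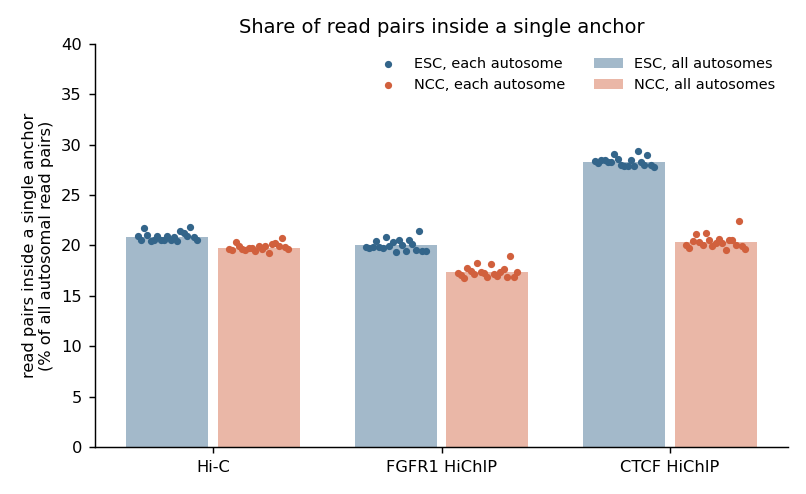
Share of autosomal read pairs inside a single anchor (y axis, percent) for each assay (x axis), ESC in blue and NCC in orange; bars give the pooled table and points the 19 autosomes. The ESC CTCF HiChIP points run from 27.8% to 29.4% and the NCC points from 19.6% to 22.4%, without overlap.

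The share was lower in NCC in all 3 assays and on 19 of 19 autosomes in each, but by unequal amounts. The log2 ratio of NCC over ESC was -0.07 in Hi-C (interval -0.08 to -0.07), -0.20 in FGFR1 HiChIP (-0.21 to -0.20) and -0.48 in CTCF HiChIP (-0.48 to -0.47). The CTCF HiChIP ratio was lower than that of Hi-C by -0.40 (interval -0.41 to -0.39) and than that of FGFR1 HiChIP by -0.27 (-0.28 to -0.26). On single autosomes, the CTCF HiChIP ratio ran from -0.52 to -0.37, so that its smallest decrease, on chromosome 17, was larger than the largest decrease of FGFR1 HiChIP, -0.24 on chromosome 3. Autosomes of 1 library are not replicates, and these ranges describe evenness along the genome.

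Shares of a table add up to the whole, so a fall inside anchors must raise the share of some other class. In CTCF HiChIP the share of every other distance class rose, which does not mean that their read pairs increased in number. Inter-chromosomal pairs rose from 9.85% to 12.3%, pairs between anchors at least 1 mb apart from 13.7% to 16.2%, pairs from 20 kb to under 1 mb from 33.5% to 35.7%, and other pairs under 20 kb from 14.5% to 15.4%. In Hi-C the inter-chromosomal class rose as well, from 10.0% to 11.5%, while the class from 20 kb to under 1 mb went from 38.9% to 37.9%. The number and median length of the CTCF HiChIP anchors were alike, 167003 of 2216 bp in ESC and 165820 of 2248 bp in NCC, although many lay at other places. At least 1 read pair inside was held by 69.1% of the ESC anchors and 56.3% of the NCC anchors, and the mean number per anchor went from 2.05 to 1.29. The share of all read pairs that lie in interactions of score 2 or more moved the same way, from 39.7% to 31.2% in CTCF HiChIP, from 39.5% to 36.6% in FGFR1 HiChIP and from 60.7% to 59.4% in Hi-C. Its part in the difference between the cell types was not tested.

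Longer anchors held more read pairs inside. In ESC CTCF HiChIP the mean rose from 1.46 per anchor of 1 to 2 kb to 10.9 per anchor of 10 kb or more, and in ESC Hi-C from 5.48 to 87.2. In NCC CTCF HiChIP the same classes gave 0.845 and 7.57. Per kb of anchor, the CTCF HiChIP values spanned less. They lay between 0.719 and 0.893 read pairs per kb over the length classes in ESC and between 0.430 and 0.622 in NCC, whereas ESC Hi-C rose from 3.27 to 6.50 per kb. The share of all read-pair ends in an anchor that came from pairs inside it also rose with length, from 26.0% to 39.3% in ESC CTCF HiChIP and from 17.1% to 33.5% in NCC.

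**Figure D2:**
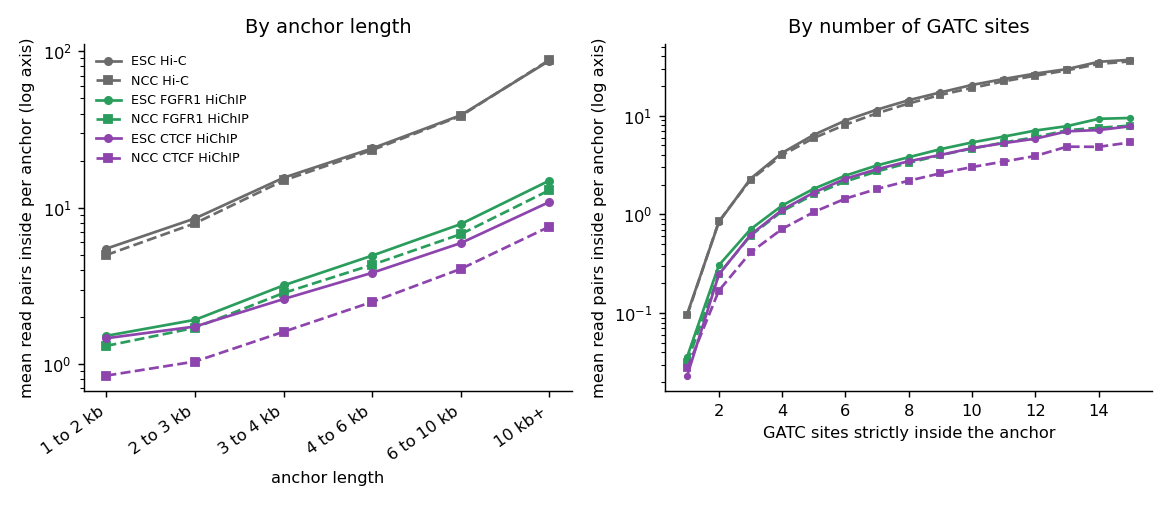
Mean number of read pairs inside an anchor (y axis, log scale) by anchor length (left) and by the number of GATC sites strictly inside the anchor (right, 1 to 15), for the 6 tables; solid lines with circles are ESC and dashed lines with squares NCC. NCC CTCF HiChIP lies below ESC CTCF HiChIP at every length and at every site number from 2 to 15.

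The number of cutting sites inside an anchor was related to these pairs more closely than its length. Every anchor started and ended at a GATC. Over all 6 tables the 235 anchors without a GATC in between held 0 read pairs inside. Such an anchor is a single restriction fragment and cannot hold a pair of different fragments, so that this 0 was fixed in advance. The 16641 anchors with 1 internal site held 736 read pairs, and the 81714 with 2 sites held 32461. In ESC CTCF HiChIP the mean was 0.0232 at 1 site, 0.246 at 2, 1.11 at 4 and 3.46 at 8, and in NCC CTCF HiChIP it was 0.0274, 0.169, 0.713 and 2.20. A single length class showed the same order. Among ESC CTCF HiChIP anchors of 2 to 3 kb, the mean was 0.0258 with 0 or 1 site, 0.477 with 2 or 3, 1.36 with 4 or 5, 2.99 with 6 to 9 and 5.61 with 10 or more. Across anchors, Spearman's rho with the number of sites was 0.65 in ESC and 0.58 in NCC CTCF HiChIP (167003 and 165820 anchors), against 0.25 and 0.27 with length, and in ESC Hi-C it was 0.85 against 0.64. These correlations describe anchors of 1 library, which share its depth.

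Anchors that overlapped the promoter of a protein-coding gene (1 kb upstream of a transcription start site) held more read pairs inside than other anchors of the same length class. In ESC CTCF HiChIP there were 16686 such anchors, 9.99% of all, with a mean of 3.21 against 1.92 read pairs. Since promoter anchors were longer (median 2546 against 2187 bp), the ratio was taken within length classes, where it was 1.43 (interval 1.42–1.45). It was 1.54 (1.53–1.56) in NCC CTCF HiChIP, 1.47 (1.46–1.48) and 1.51 (1.49–1.52) in ESC and NCC FGFR1 HiChIP, and 1.69 and 1.58 in ESC and NCC Hi-C. From ESC to NCC it therefore went up in CTCF HiChIP and down in Hi-C, with intervals that did not overlap in either assay. Promoter anchors also held more ends of other pairs. In ESC CTCF HiChIP they had 15.6% of the read pairs inside and 15.5% of all ends. The share of ends from inside the anchor was 28.6% with and 28.2% without a promoter there, and 22.1% and 20.02% in NCC. It was higher with a promoter in the Hi-C and FGFR1 HiChIP tables too. Neither this ratio nor that of the CTCF consensus below was matched for the number of GATC sites.

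Anchors over the CTCF consensus were fewer, 4394 in ESC CTCF HiChIP and 4572 in NCC CTCF HiChIP. Their ratio within length classes was 1.36 (1.34–1.38) in ESC and 1.52 (1.49–1.55) in NCC CTCF HiChIP. In Hi-C it was 1.33 in both cell types, and in FGFR1 HiChIP 1.18 (1.16–1.20) and 1.23 (1.21–1.25). The consensus was thus marked by more read pairs inside in all 6 tables, the FGFR1 HiChIP and Hi-C tables included. In ESC CTCF HiChIP, however, the share of ends that came from inside the anchor was 28.2% with and 28.3% without the consensus, while in NCC it was 22.5% with and 20.2% without.

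**Figure D3:**
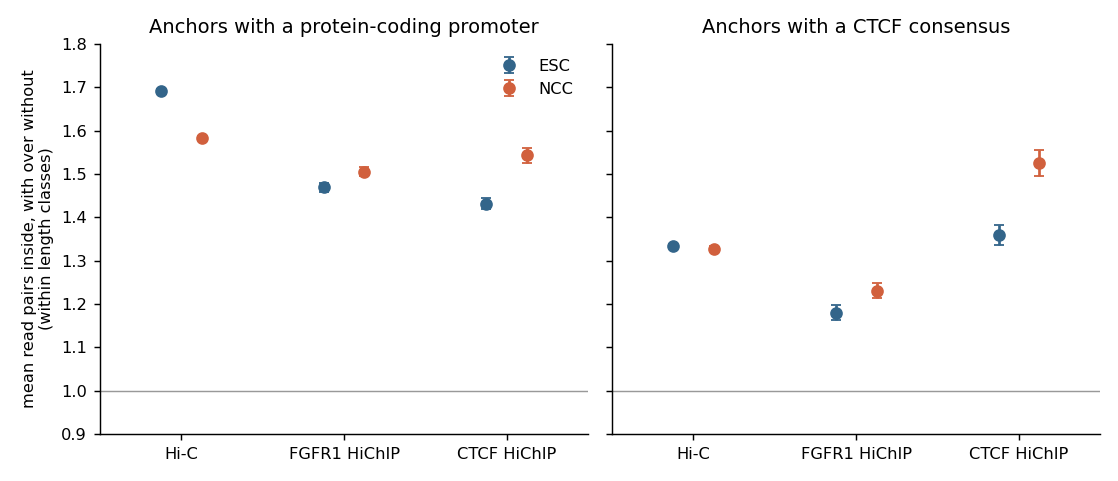
Ratio of the mean number of read pairs inside anchors with a feature over anchors without it, within length classes (y axis, from 0.9; bars are 95% counting intervals), for protein-coding promoters (left) and the CTCF consensus (right) in each assay; ESC in blue, NCC in orange. In CTCF HiChIP both ratios were higher in NCC, 1.54 against 1.43 and 1.52 against 1.36.

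The pairs inside HiChIP anchors followed Hi-C contacts at the same place. Hi-C strength was the number of Hi-C read-pair ends of all other kinds (not inside an anchor) per kb in the overlapping Hi-C anchors of the same cell type. From the lowest to the highest quintile, read pairs inside per kb rose from 0.524 to 1.56 in ESC CTCF HiChIP, a ratio of 2.97 (2.94–3.01), and from 0.337 to 0.999 in NCC, a ratio of 2.97 (2.92–3.01). In FGFR1 HiChIP the ratios were 2.86 (2.84–2.89) in ESC and 2.56 (2.54–2.58) in NCC. The share of ends from inside the anchor did not rise steadily. In ESC CTCF HiChIP it was 30.3% in the lowest and 29.9% in the highest quintile, with 27.5% in the second lowest. In the other 3 tables the highest quintile had the largest share, 22.9% against 21.001% in the lowest in NCC CTCF HiChIP, 22.0% against 20.9% in ESC and 20.2% against 17.6% in NCC FGFR1 HiChIP. No Hi-C anchor overlapped 33749 of the ESC CTCF HiChIP anchors, which held a mean of 1.05 read pairs inside, and the 38564 such NCC anchors held 0.634.

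To find which anchors account for the loss in CTCF HiChIP, overlapping ESC and NCC anchors were merged into 244440 regions, and the NCC read pairs were scaled to the ESC total. The 342819 ESC read pairs inside anchors then stood against 246542 scaled NCC read pairs, a ratio of 0.719 (interval 0.715–0.723). Anchors present in both cell types (85082 regions) fell by 50581 scaled read pairs, with a ratio of 0.768 (0.763–0.774). In the 80248 regions with an ESC anchor alone, 124385 read pairs had no counterpart, and the 79110 regions with an NCC anchor alone added 78689 scaled read pairs. Anchors were called from the reads of each table, so that the presence of an anchor is itself a readout of the same library. In Hi-C the corresponding amounts in regions of 1 cell type were nearly balanced, 240288 against 228022, and in FGFR1 HiChIP they were 113581 against 117053.

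The loss lay mostly in weak regions, which also held most of the read pairs inside. Regions with fewer than 10 read pairs inside over both tables were 96.3% of all regions and carried 74.4% of the net difference. Of the 342819 ESC read pairs inside, the stronger regions held 26298 (called lower below), 54261 (no call) and 1126 (called higher). The part of the loss in weak regions was thus close to their part of the read pairs. The regions that went down fell by 239284 read pairs in sum, of which 5.66% lay in the top 1% of these regions and 29.96% in the top 10%. Every autosome took part, with ratios from 0.667 on chromosome 7 to 0.768 on chromosome 16. Shorter regions lost the larger share. By the longer of the ESC and NCC anchor totals, the ratio was 0.613 (0.606–0.620) at 1 to 2 kb, 0.677 at 2 to 3 kb, 0.724 at 3 to 4 kb, 0.804 at 4 to 6 kb, 0.894 (0.879–0.910) at 6 to 10 kb and 0.981 (0.944–1.02) at 10 kb or more.

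Because a shorter anchor leaves fewer pairs inside it, the anchors with identical borders in ESC and NCC give the comparison without that change, although they too were chosen by a property of both libraries. There were 27064 in CTCF HiChIP, which held 55374 read pairs inside in ESC and 37255 in NCC, a scaled ratio of 0.776 (0.766–0.786). Their ends of other pairs within the chromosome had a ratio of 1.11 and their inter-chromosomal ends one of 1.25, so that the number of all ends was near equal at 1.04. Over all merged regions these ratios were 1.09 and 1.25, and that of all ends was 1.0003. Scaling used a total that includes the pairs inside, so that a fall inside raises the other ratios. The comparison at fixed borders gave 0.907 (0.905–0.910) inside 60736 Hi-C anchors, with 0.974 and 1.12 for the other ends. Inside 37357 FGFR1 HiChIP anchors it gave 0.758 (0.751–0.765), with 0.889 for other ends within the chromosome, 1.02 for inter-chromosomal ends and 0.880 for all ends. At fixed borders the decrease inside anchors was therefore no smaller in FGFR1 HiChIP than in CTCF HiChIP, whereas the share of ends that were inside went from 18.8% to 16.2% in FGFR1 HiChIP and from 26.8% to 20.1% in CTCF HiChIP.

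**Figure D4:**
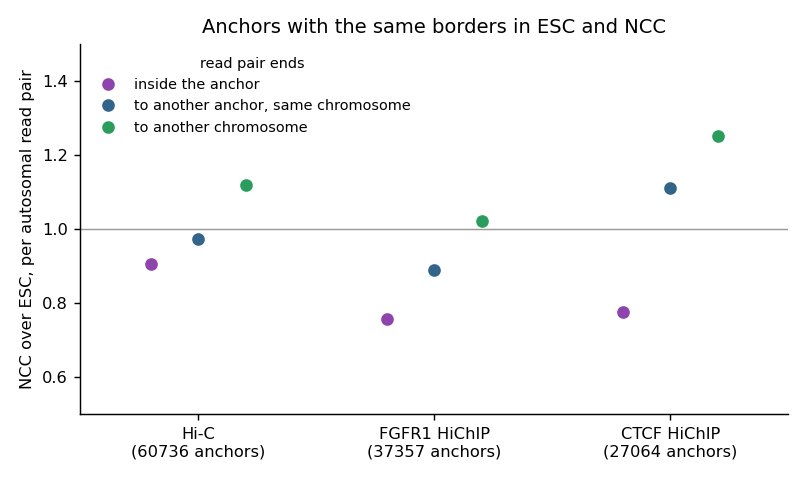
NCC over ESC ratio of read-pair ends, per autosomal read pair (y axis), at anchors with the same borders in both cell types (x axis, assay and number of anchors), for pairs inside the anchor, to another anchor of the chromosome and to another chromosome; the line marks equal numbers. In CTCF HiChIP the inside ratio is 0.776 and the other ratios are 1.11 and 1.25.

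At fixed borders the length order of the loss was the same, from 0.723 (0.704–0.742) in 9243 anchors of 1 to 2 kb to 0.924 (0.870–0.982) in 294 anchors of 6 to 10 kb. Hi-C anchors of the same kind had a like order over a smaller span, from 0.893 (0.885–0.902) at 1 to 2 kb to 0.932 (0.923–0.941) at 10 kb or more. The FGFR1 HiChIP ratios lay between 0.752 and 0.767 over the length classes at fixed borders, and rose from 0.814 to 0.993 with length over merged regions. By the number of internal GATC sites, the CTCF HiChIP ratio was 0.827 (0.787–0.870) at 2 or 3 sites, 0.769 at 4 or 5, 0.753 (0.739–0.768) at 6 to 9 and 0.833 (0.807–0.859) at 10 or more.

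CTCF HiChIP anchors over the CTCF consensus kept more of their inside pairs than others. The ratio was 0.815 (0.795–0.835) in the 5916 merged regions with a match and 0.715 (0.711–0.719) in those without, and at fixed borders it was 0.867 (0.824–0.912) in 1222 anchors against 0.770 (0.760–0.781) in 25842. The ratio of these ratios was 1.13 (1.07–1.19) at fixed borders, and 1.09 (1.04–1.15) when anchors without a match were weighted to the length classes and Hi-C quintiles of those with one. The same weighting gave 1.01 (0.96–1.07) in FGFR1 HiChIP and 1.01 (1.00–1.03) in Hi-C. Intervals after weighting cover the counts of the anchors with a match alone and are therefore too narrow. Of the 12245 consensus sites, 3154 lay in anchors of both cell types, where the ratio was 0.832 (0.809–0.857), 1401 in ESC anchors alone and 1568 in NCC anchors alone. Consensus sites therefore did not leave the anchors on balance, and more of them lay in NCC anchors alone than in ESC anchors alone.

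Promoter regions also lost less, with ratios of 0.768 (0.758–0.778) against 0.710 (0.705–0.714) in merged regions and 0.827 (0.802–0.851) against 0.764 (0.753–0.776) at fixed borders. After the same weighting the ratio of the ratios was 1.03 (1.00–1.06). Here too, intervals after weighting leave out the counting error of the other anchors, so that 1.03 was not clearly above 1. FGFR1 HiChIP went the same way at fixed borders, with 0.784 (0.767–0.801) in 4512 promoter anchors against 0.752 (0.744–0.760) in the others, and 1.07 (1.05–1.097) after weighting. In Hi-C the order was the opposite, 0.876 (0.871–0.880) in 8154 promoter anchors with fixed borders against 0.919 (0.916–0.922) in the others. The relation to Hi-C strength depended on the anchors used. Over merged regions the ratio fell from 0.819 (0.806–0.832) in the lowest quintile to 0.674 (0.668–0.680) in the highest, while at fixed borders it rose from 0.716 (0.689–0.745) to 0.821 (0.803–0.840). Over merged regions the ratio of all ends fell in the same direction, from 1.21 to 0.886, so that this order was not particular to pairs inside. There the share of ends inside went from 30.4% to 20.6% in the lowest quintile and from 29.8% to 22.7% in the highest.

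**Figure D5:**
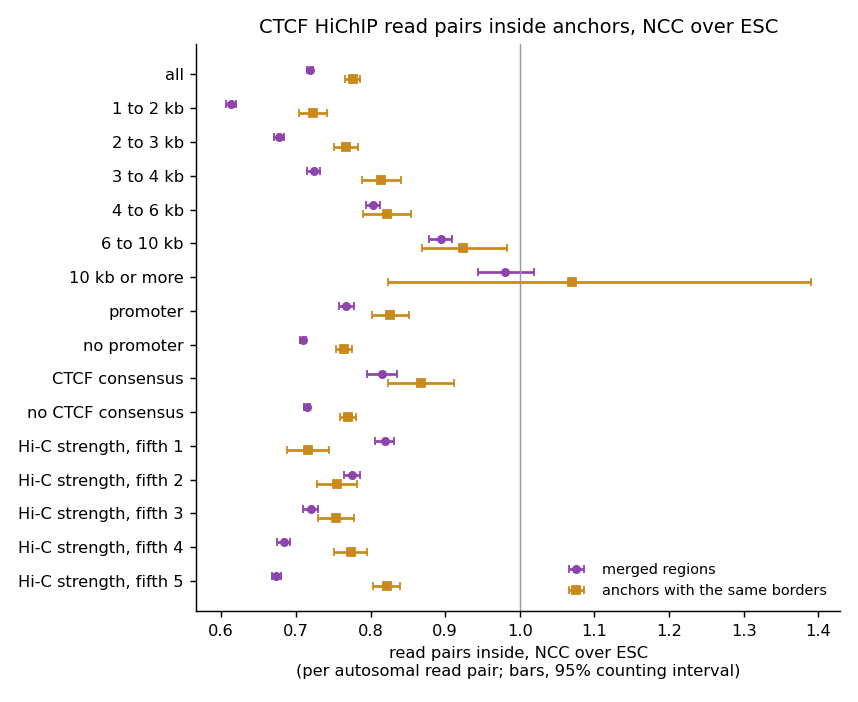
NCC over ESC ratio of CTCF HiChIP read pairs inside anchors, per autosomal read pair (x axis; bars are 95% counting intervals; the line marks no difference), over merged regions (circles) and anchors with the same borders (squares), for all anchors and by length, promoter, CTCF consensus and Hi-C strength from the weakest to the strongest quintile. Shorter anchors have lower ratios in both sets, and the order over Hi-C quintiles is opposite in the 2 sets.

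Single regions were called where the ratio was at most 0.5 or at least 2 and its interval left out 1. Among 9031 regions with at least 10 read pairs, 1970 (21.8%) were lower in NCC and 508 (5.63%) higher. The background in the other assays was 16.7% lower and 14.4% higher among 165258 Hi-C regions, and 18.2% lower and 10.9% higher among 28873 FGFR1 HiChIP regions. Most calls went with a change of the anchors. Of the 1970 lower regions, 575 had no NCC anchor. All 575 tested regions with an ESC anchor alone met the rule, so that this count was fixed in advance. A further 1259 lower regions had shorter NCC anchors. Among 8376 tested regions with anchors in both cell types, NCC anchors were under 0.5 of the ESC length in 945. They were from 0.5 to under 0.9 of it in 2426, and 553 and 672 of these regions were lower. At fixed borders, 70 of 1726 CTCF HiChIP anchors (4.06%) were lower and 10 (0.579%) higher, against 2.50% and 0.793% of 42629 Hi-C anchors and 4.72% and 0.415% of 4573 FGFR1 HiChIP anchors. Inside the Hi-C anchors over the 1970 lower regions the ratio was 0.9004 (0.894–0.907), as over the 6553 regions without a call (0.901, 0.897–0.905), and over the 508 higher regions it was 0.969 (0.956–0.982). FGFR1 HiChIP gave 0.702 (0.685–0.718), 0.778 (0.769–0.788) and 0.908 (0.870–0.949) in the same order. The CTCF consensus was present in 6.95% of the lower, 10.2% of the higher and 9.15% of all tested regions, whose median lengths were 4432, 5717 and 4292 bp.

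The anchor with the most read pairs inside was the same place in all 6 tables, chr17:39842463-39849607, where the annotation has an rRNA gene and non-coding genes. Genes of rRNA exist in many copies, so that reads there cannot be assigned to a single place with certainty. It held 9651 (ESC) and 8180 (NCC) read pairs in Hi-C, 1455 and 1818 in FGFR1 HiChIP, and 737 and 827 in CTCF HiChIP. Its scaled ratio in CTCF HiChIP was 1.29 (1.17–1.43), above 1 where the table as a whole went down, and in Hi-C it was 0.828 (0.803–0.852). An anchor over a promoter of Sfi1, a gene of centrosome function (chr11:3183823-3191398), held 1169, 1116, 350, 377, 285 and 197 read pairs in ESC and NCC Hi-C, ESC and NCC FGFR1 HiChIP, and ESC and NCC CTCF HiChIP. Its CTCF HiChIP ratio was 0.797 (0.662–0.960), with an NCC anchor of 7329 against 7575 bp. In ESC Hi-C, 1241 of its other ends went to other chromosomes and 954 stayed within chromosome 11. The neighbouring Sfi1 interval, chr11:3191997-3200811, held 113 and 147 read pairs in CTCF HiChIP, a ratio of 1.501 (1.17–1.94). It had 2 ESC anchors of 8307 bp in all but 1 NCC anchor of 8814 bp, so that the borders were not fixed. A short intergenic anchor of 1810 bp, chr4:81155812-81157622, had the same borders in all 6 tables and held 139, 106, 97, 95, 99 and 61 read pairs in the same order, which gave ratios of 0.745 (0.573–0.966) in Hi-C, 0.815 (0.608–1.09) in FGFR1 HiChIP and 0.711 (0.508–0.988) in CTCF HiChIP, with 1 inside the interval for FGFR1 HiChIP alone. An anchor at Pkn3, a protein kinase gene (chr2:30076338-30078712), was among the first 5 in NCC CTCF HiChIP alone. It held 48 read pairs in ESC and 67 in NCC, a ratio of 1.61 (1.095–2.38). Apart from the anchor of Gm10800 and Gm10801, the other places among the first 5 of a table were each there in 1 table, and most were long Hi-C anchors at promoters, such as the 24182 bp anchor over Atp5d, Cbarp and Stk11 with 745 and 638 Hi-C read pairs.

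The largest loss of a single region was at the predicted genes Gm10800 and Gm10801 on chromosome 2 (98661542-98668221), an anchor of 6679 bp with the same borders in all 6 tables. It held 193 read pairs in ESC CTCF HiChIP and 35 in NCC, a scaled ratio of 0.209 (0.142–0.301). In Hi-C the same anchor went the other way, from 666 to 927 read pairs (1.36, 1.23–1.504), and in FGFR1 HiChIP it held 42 and 36 (0.714, 0.444–1.14). In ESC CTCF HiChIP only the rRNA and Sfi1 anchors held more, and 1012 of its other ends went to other chromosomes against 31 within chromosome 2. In NCC Hi-C these numbers were 5182 and 258, and at the rRNA anchor they were 8475 and 195. Whether the reads of this anchor, or those of the Sfi1 anchors, belong to a single place was not tested. Its loss is therefore not read as one of a gene.

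The other large losses lay at ESC anchors that were shorter, split or missing in NCC. At Eif4a1, the RNA helicase of translation initiation (chr11:69668076-69673562), 41 read pairs in an anchor of 5486 bp became 6 in one of 3036 bp, a ratio of 0.169 (0.0586–0.3999). Hi-C at that place held 92 read pairs in ESC and 139 in NCC, in anchors of 3036 and 5486 bp, so that the longer anchor was the NCC one there. At Hspa5, the chaperone BiP of the endoplasmic reticulum (chr2:34774197-34778770), 29 read pairs in ESC stood against no anchor in NCC. The same held for 42 read pairs in an anchor of 3881 bp at Mrpl12, a mitochondrial ribosomal protein gene (chr11:120485216-120489097). At Eef1g, a subunit of translation elongation factor 1 (chr19:8963958-8977995), 30 read pairs in 11260 bp became 1 in 6545 bp (0.0385, 0.000943–0.231).

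Of the regions named for the largest losses, Macf1, which encodes a cytoskeletal crosslinker, went from 34 to 2 read pairs (0.0679, 0.00790–0.265), Ssr2, a subunit of the translocon-associated complex, from 33 to 2, Gm12216 from 38 to 5, Psmd12, a proteasome subunit, from 35 to 6 (0.198, 0.0680–0.475), and Asic1, an acid-sensing ion channel, from 51 to 17 (0.385, 0.208–0.677). Further promoter regions with large losses were those of Nfatc4, a transcription factor of calcium signalling (29 to 1), Ubn1 and Glyr1 (32 to 4), Itgb7, an integrin (28 to 1), Homer3, a postsynaptic scaffold (30 to 3, 0.115, 0.0225–0.371) and Mef2d, a transcription factor of muscle and neurons (42 to 14, 0.385, 0.194–0.718). In each of these 10 regions the summed NCC anchors were shorter than those of ESC. Nfatc4 went from 12487 to 3394 bp and Homer3 from 5392 to 2371 bp, and Mef2d from 15591 to 12581 bp.

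Called gains were fewer and went with longer NCC anchors. At Pkp2, a desmosome gene (chr16:16266432-16287969), 8 read pairs in 3 ESC anchors of 7730 bp in all stood against 47 in 1 NCC anchor of 18764 bp, a ratio of 6.78 (3.17–16.6). At the promoters of Hax1 and Ubap2l (chr3:89997471-90005615) an NCC anchor of 8144 bp held 31 read pairs and there was no ESC anchor. At the promoter of Camk2n1, an inhibitor of the kinase CaMKII, 12 read pairs became 36 (3.46, 1.76–7.31), at that of Racgap1, a cytokinesis gene, 10 became 32 (3.69, 1.77–8.42), and at that of Rapgef1 23 became 42 (2.11, 1.24–3.67). The remaining regions named for large gains were at Rgl2, Myo15, Coq10a, Amh and Pde4d, with 21 to 34 read pairs in NCC and 0 to 17 in ESC. In all 10 the NCC anchors were longer in sum, for example 6860 against 3086 bp at Rgl2.

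With fixed borders, and chosen after the values were seen, the losses next to Gm10800 were at an intergenic anchor with a consensus match (chr1:150475252-150482233, 21 to 5 read pairs, 0.275, 0.0809–0.749), at the promoter of Odf2, a centriole gene (21 to 5), in the body of Slc5a5, the sodium iodide symporter (24 to 8), and at the promoters of Mettl23 (21 to 6) and Vgf, a neuropeptide precursor (17 to 3, 0.204, 0.0382–0.704). Zmynd8, a chromatin reader, held 22 and 7 in a gene-body anchor with a consensus match. The largest gains were at Zfp385a (13 to 28, 2.48, 1.25–5.23) and at the promoter of Elmsan1 (10 to 22, 2.54, 1.15–6.004). The anchors shown with their sequences for their fixed borders, consensus match and number of read pairs, which were not chosen by change, held 35 and 21 read pairs in ESC and NCC at Bbx (0.692, 0.383–1.22), 23 and 29 at the intergenic anchor of chromosome 11 (1.45, 0.813–2.63), 26 and 25 at Tnnt2 (1.11, 0.615–1.999) and 21 and 23 at the intergenic anchor of chromosome 2 (1.26, 0.669–2.40).

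Promoters of gene lists chosen for this differentiation and for CTCF, imprinting and ribosomal proteins were then read. Beside the background of 21.8% lower and 5.63% higher and a median log2 ratio of -0.60 over the 9031 tested regions, few list regions had enough read pairs. Of 20 pluripotency genes, 19 were on autosomes, and their promoters overlapped 18 regions with 63 read pairs in each cell type. Among 5 tested regions 2 were lower and 1 higher, with a median of 0.05. Fgf4, a growth factor of stem cells, went from 23 read pairs in 3195 bp to 4 in 1786 bp (0.201, 0.0504–0.587). Lin28a, an inhibitor of let-7 processing, went from 10 in 4555 bp to 1 in 1552 bp (0.115, 0.00266–0.811). Sall4, a zinc finger factor of pluripotency, went from 2 in 1477 bp to 15 in 4761 bp (8.65, 2.01–78.0). The Pou5f1 promoter, which encodes OCT4, had the same anchor of 2029 bp in both and held 10 and 9 read pairs.

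The retinoic acid response list of 20 genes had 23 regions with 85 and 102 read pairs, a ratio of 1.38 (1.03–1.87). This ratio includes changes of the anchors. Only 3 anchors of the list had the same borders in both cell types. They held 26 and 38 read pairs, of which Stra8 alone held 21 and 35, so that no rise over the list as a whole was shown at fixed borders. Of 4 tested regions 1 was lower and 2 were higher, and the median was 1.57. Rara, the retinoic acid receptor alpha, went from 1 read pair in 1604 bp to 11 in 5465 bp (12.7, 1.84–546), with 58 and 270 read pairs inside the Hi-C anchors there, which covered 6360 and 12871 bp. Nr2f2, a nuclear receptor, went from 4 in 3 ESC anchors of 8381 bp in all to 16 in 1 NCC anchor of 12504 bp (4.61, 1.49–18.97). At Meis2, a homeodomain cofactor, an ESC anchor of 4043 bp held 12 read pairs and there was no NCC anchor. Stra8, which acts at the start of meiosis, had the same 3222 bp anchor in both and held 21 and 35 read pairs, a ratio of 1.92 (1.09–3.48), just under the limit for a call.

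The neural induction list of 20 genes had 24 regions with 58 and 23 read pairs, a ratio of 0.458 (0.269–0.753). Its 4 anchors with the same borders in both cell types held only 4 and 2 read pairs. None of the 4 tested regions of the list was called, and their median was -1.001. Pax6, a transcription factor of the neural plate and eye, held 16 and 7 read pairs over its 5 promoter regions (0.505, 0.176–1.30) and Pax3 8 and 5. The 39 Hox genes, homeodomain factors of body position, had 36 regions with 97 and 94 read pairs (1.12, 0.833–1.5003). Of 8 tested regions 1 was higher, at Hoxc8, with 2 read pairs in 2724 bp and 9 in 6083 bp (5.19, 1.07–49.4), while Hi-C held 246 and 55 there, in anchors of 20850 and 9733 bp.

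Genes of CTCF and cohesin (13 genes, 28 regions) held 84 and 60 read pairs, a ratio of 0.824 (0.582–1.16), and none of 5 tested regions was called. Ctcf itself held 4 and 11 over 2 regions, Stag1 12 and 13 over 4, and Pds5a, a cohesin regulator, 21 and 17. The 14 imprinted genes had 16 regions with 26 and 23 read pairs and 1 tested region without a call, at Igf2, with 13 and 11. The 74 ribosomal protein genes had 59 regions with 204 and 146 read pairs, a ratio of 0.826 (0.663–1.03). Of 14 tested regions 4 were lower and 1 was higher, with a median of -0.63. The lower regions were at Rps18 (13 to 1, 0.0887, 0.00209–0.591), Rpl4 (10 to 1), Rpl6 (9 to 1, 0.128, 0.00292–0.925) and Rps29 (11 read pairs, no NCC anchor), and the higher at Rps20 (4 to 15, 4.33, 1.38–17.9). The Rps29 region also holds Rn7s1, a copy of the 7SL RNA gene. The anchor went from 3812 to 1403 bp at Rps18. At Rpl4 and Rpl6, 1 ESC anchor was split into 2 NCC anchors, from 6248 to 5380 bp and from 5643 to 5082 bp in all. At Rps20, 2 ESC anchors of 7898 bp in all stood against 1 NCC anchor of 9101 bp. Pairs between 2 anchors of a region do not count as inside.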

How the data were processed

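The 6 deposited tables list pairs of anchors with a score, which is the count of read pairs that the authors obtained with HiC-Pro (valid pairs on mm10) and hichipper (anchors called in each sample from all its reads and extended to restriction fragments, no filter on q), merged over 2 replicates. The authors' methods mention equalizing valid pairs between cell types; whether this preceded the deposited tables is not given, and their totals are unequal. All anchors were checked to start and end at a GATC of GRCm38. Interactions of an anchor with itself were taken on chromosomes 1 to 19. Ratios used scaling to all autosomal read pairs, Wilson intervals for shares and exact conditional (Clopper-Pearson) intervals for ratios. Promoters and genes came from GENCODE vM21 and CTCF matches from the GRCm38 sequence. Calls were tested on simulated read pairs. Named were the 5 anchors per table with most read pairs inside, the called regions with the largest net loss or gain (10 each, for promoters 10 and 5) and called members of the gene lists. Some list members without a call were also named, from among those of their list with the most read pairs inside. Regions outside this rule are given as chosen after their values were seen. Members, gene lists and tests were chosen with earlier results of these data known. Python 3.11.15, pandas 2.3.3 and SciPy 1.17.1 were used. Alternatives covered the score minimum, chromosomes, anchor length, promoter window, motif and scaling.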

Additional observations from a re-analysis of the deposited data

How the results depend on the processing

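No paired analysis was possible because the deposited tables hold both replicates merged. Alternatives changed levels more than directions. The NCC share stayed below the ESC share in all 3 assays under every alternative. Limited to scores of at least 2, the shares of ESC and NCC were 34.2% and 33.2% in Hi-C, 46.5% and 43.2% in FGFR1 HiChIP and 63.1% and 52.0% in CTCF HiChIP, with log2 ratios of -0.043, -0.11 and -0.28. Among read pairs within a chromosome they were 23.2% and 22.4%, 22.5% and 19.9%, and 31.4% and 23.2% (log2 ratios -0.051, -0.18 and -0.44). Among anchors of 2 to 4 kb they were 38.4% and 36.8%, 33.3% and 29.9%, and 43.6% and 33.2% (-0.064, -0.15 and -0.39). Without the strongest 1% of anchors they were 19.9% and 18.9%, 19.1% and 16.6%, and 27.3% and 19.3%, and the CTCF HiChIP log2 ratio was -0.50. With X added, Hi-C had 20.88% and 19.81% and NCC FGFR1 HiChIP 17.43%.

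Spearman's rho with the number of GATC sites in place of length was 0.85 and 0.86 in Hi-C, 0.69 and 0.70 in FGFR1 HiChIP, and 0.65 and 0.58 in CTCF HiChIP. With scores of at least 2, rho with length was 0.387 and 0.427 in FGFR1 HiChIP and 0.280 in NCC CTCF HiChIP. The promoter ratio with windows on both sides was 1.68 and 1.58 in Hi-C, 1.49 in NCC FGFR1 HiChIP and 1.52 in NCC CTCF HiChIP. With all annotated genes it was 1.57, 1.49, 1.41, 1.43, 1.39 and 1.48, and without length classes 2.64, 2.55, 1.83, 1.87, 1.67 and 1.81, in ESC and NCC of Hi-C, FGFR1 and CTCF HiChIP in turn. By Hi-C pairs inside anchors, the top over bottom quintile ratio was 4.15 and 3.49 in FGFR1 HiChIP and 4.48 and 4.004 in CTCF HiChIP.

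The 1970 lower and 508 higher CTCF HiChIP regions became 70 and 10 with the same borders, 118 and 13 with summed lengths within 10%, and 267 and 70 at a minimum of 20 read pairs. Hi-C had 27628 and 23826, FGFR1 HiChIP 5253 and 3157. The overall ratio was 0.660 when scaled to other read pairs within a chromosome, 0.776 with the same borders and 0.774 with lengths within 10%. The wider CTCF motif gave a ratio of ratios of 1.06 in place of 1.14. The highest over lowest Hi-C quintile was 0.823 over merged regions and reversed to 1.15 with the same borders, the cause of which was not tested. Leaving out the 3 strongest regions, an alternative chosen after seeing the data, left the overall ratio within its interval. Depth limits single regions: 96.3% of CTCF HiChIP regions held under 10 read pairs, and without replicates no interval covers variation between cultures.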
